A study of Homo sapiens with 6 samples.

Results

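Genes of the centrosome and of microtubule nucleation were followed by RNA sequencing in SU-DHL-8 cells. SU-DHL-8 is an established line, grown from a human diffuse large B-cell lymphoma and labelled as wild type. The line was treated for 24 h with 100 nM erianin, a bibenzyl natural product known to bind tubulin, or for 24 h with DMSO alone as the vehicle control. There were 3 libraries in either group. Whether they came from separate cultures is not stated, and all p-values then reflect only how far these libraries spread, part of which may be technical. All libraries come from 1 cell line. The genes were chosen by symbol, with earlier results of these data known. The rule took CEP followed by a number, TUBGCP and HAUS subunits, and 13 further genes by name (PCNT, CDK5RAP2, PLK4, STIL, SASS6, CENPJ, NEDD1, OFD1, PCM1, TUBG1, TUBG2, TUBD1 and TUBE1). This rule matched 60 of 65746 symbols, and 56 of them had at least 20 counts over the 6 libraries. CEP20, CEP43, CEP83 and CEP128 were listed at 0 in every library. CEP20 and CEP43 carry other symbols in GENCODE 29, and no 0 was read as absence of expression. All 56 genes with counts passed the filter on low counts and were tested, so no member was lost to it.

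The centrosome is the main microtubule organising centre of most animal cells. A pair of centrioles recruits pericentriolar material, a protein scaffold built on pericentrin, CDK5RAP2 and CEP192, which in turn holds gamma-tubulin ring complexes. Such a ring is a template of gamma-tubulin and GCP proteins from which a new microtubule grows, and augmin, a complex of HAUS subunits, lets rings nucleate new microtubules from the side of existing ones in the spindle. Centrioles are copied once per cell cycle under the kinase PLK4, with STIL and SASS6 building the cartwheel. Older centrioles carry appendages that anchor microtubules and dock the cilium, and satellites around PCM1 carry centrosomal cargo.

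Total counts ran from 30956443 to 35588728 per library, and a count of 3 equals 0.082 to 0.099 CPM (read counts scaled to library size, the unit of all levels below unless TPM, which is also scaled to gene length, is named). All 7 B-lineage markers had counts, with summed levels of 2716 to 3736 CPM with DMSO and 2296 to 2570 CPM with erianin. T-cell markers summed to at most 0.055 CPM, with CD3G and CD2 at 0, and epithelial markers to at most 0.154 CPM, with EPCAM and CDH1 at 0. Fibroblast markers summed to at most 0.218 CPM. Myeloid markers summed to 4.30 to 7.27 CPM with DMSO and 9.36 to 10.6 CPM with erianin, and NK-cell markers to 1.91 to 5.88 and 4.75 to 5.60 CPM, and their part in the results was not tested. DMSO replicate 1 stood apart. Its biological coefficient of variation was 0.292 against DMSO replicate 2 and 0.295 against DMSO replicate 3, which differed from each other by 0.038, and pairs of erianin libraries by 0.0336 to 0.0815. Of the 56 genes, 46 (82.1%) were higher in DMSO replicate 1 than in the mean of DMSO replicates 2 and 3, against 52.7% of 11550 tested genes, with a median log2 ratio of 0.33 against 0.04. Their transcripts were poorer in G and C than usual, with a median GC content of 42.1% against 48.4%, and longer, with a median longest transcript of 4900 bases against 3578. Across the 55 members with GC content, the ratio fell as GC content rose (Spearman rho -0.64, a description across genes that share libraries), as it did over 11362 tested genes (rho -0.52). The fold change with erianin showed little such relation over the members (rho 0.11). Counts of called members below are therefore given with and without DMSO replicate 1.

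**Figure D1:**
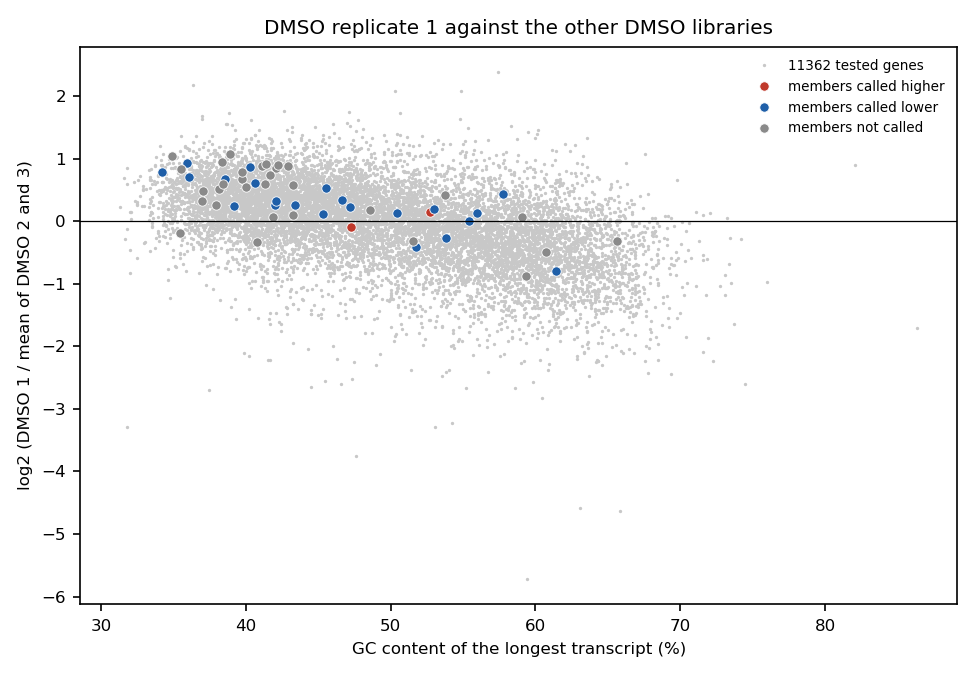
Log2 ratio of DMSO replicate 1 to the mean of the other DMSO libraries (vertical axis) against GC content of each gene's longest transcript in percent (horizontal axis). Grey dots are 11362 tested genes and large points are 55 centrosome and nucleation genes, coloured by their call with erianin; most large points lie above 0 (46 of all 56 members), and more of them at low GC content.

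More members were called lower than higher with erianin. Of the 56 genes, 22 fell, 2 rose and 32 were not called at an adjusted p under 0.05 (edgeR quasi-likelihood test with Benjamini-Hochberg adjustment over all 11550 genes tested). The 22 that fell are 39.3% of the members, beside 12.3% of all tested genes called lower, and the 2 that rose are 3.57%, beside 11.8% called higher. The median log2 fold change of the members was -0.42, beside -0.0033 over all tested genes, and 43 of 56 had a negative value (38 without DMSO replicate 1). Changes were small. Only CEP295, CEP135 and HAUS8 among the called genes passed 2-fold, all of them downwards. Without DMSO replicate 1 these 3 stayed short of 2-fold (-0.86, -0.83 and -0.9997 on the log2 scale). In 33 members (58.9%) every erianin library lay below every DMSO library, beside 23.1% of all tested genes, and in 3 members, CEP68 and CEP164 among them, every erianin library lay above (5.36%), beside 23.6%. Against DMSO replicates 2 and 3 alone, all erianin libraries lay below in 35 of 56 members and above in 10 of 56. Among all 11550 tested genes they lay below in 4034 (34.9%) and above in 3997 (34.6%). These are bulk libraries, so a change in the share of cells at a stage of the cell cycle and a change of RNA per cell cannot be told apart.

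Without DMSO replicate 1, 32 members fell (57.1%, beside 27.4% of tested genes) and 8 rose (14.3%, beside 27.8%), and all 24 genes called with 6 libraries were called in the same direction. The median was then -0.26. Calls of members depended on the number of erianin libraries. Of the 24 called genes, 22 were not called without erianin replicate 1 (adjusted p 0.0509 to 0.174), 22 without erianin replicate 2 (0.0503 to 0.164) and 19 without erianin replicate 3 (0.0507 to 0.133), so that 2, 2 and 5 members stayed lower. HAUS8 and CEP192 were called lower whichever library was left out. The risers were called in no fit that lacked an erianin library or DMSO replicate 3, and without DMSO replicate 2 CEP68 was the one that rose. With libraries scaled by total counts alone, which moves the median of all genes by 0.11, 10 members fell and 2 rose. Shares of all tested genes called are not given for total counts alone or for fits without another library than DMSO replicate 1. Whether members lost calls more often than other genes was not tested.

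**Figure D2:**
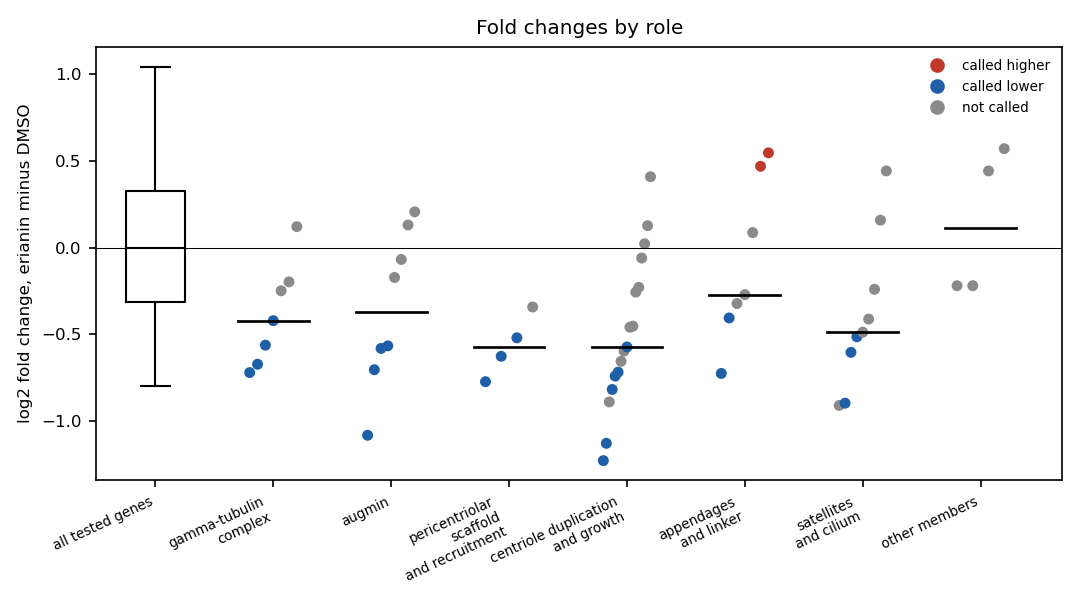
Log2 fold change, erianin minus DMSO (vertical axis), for members grouped by role, beside all 11550 tested genes (box: quartiles and median, whiskers: central 90%). Each point is a gene coloured by its call and each line a group median; group medians run from -0.57 for scaffold genes and centriole duplication genes to 0.11 for the 4 genes without an assigned role.

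Promoter windows are shown for 7 members in which motifs known from cell cycle promoters were searched. They are the 3 genes with the largest falls (HAUS8, CEP295 and CEP135), the scaffold gene CEP192, the 2 that rose (CEP68 and CEP164) and CEP55, which has 2 CHR matches and was not called. RefSeq windows (GRCh38.p14, from 250 bases before to 50 after the start) were found for 50 of the 56 genes. Motifs were TTTGAA or TTCGAA, named CHR for the cell cycle genes homology region; TTTGGCGC, TTTCCCGC, TTTGGCGG or TTTCGCGC for E2F; GCGCATGC for the NRF1 core; and CCAAT for NF-Y. Each was sought on both strands, and a match describes letters only. Capitals mark every match to any of these motifs, and each sequence reads 5′ to 3′ on the strand of its gene.
HAUS8, chr19:17075403-17075702, minus strand: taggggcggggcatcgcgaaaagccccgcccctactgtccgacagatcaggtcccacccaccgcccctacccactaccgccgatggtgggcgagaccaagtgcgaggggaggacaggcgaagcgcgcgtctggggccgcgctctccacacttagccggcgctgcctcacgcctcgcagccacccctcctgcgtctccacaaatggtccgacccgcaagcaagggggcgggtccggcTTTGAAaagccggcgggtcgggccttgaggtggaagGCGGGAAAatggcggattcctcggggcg
CEP295, chr11:93661432-93661731, plus strand: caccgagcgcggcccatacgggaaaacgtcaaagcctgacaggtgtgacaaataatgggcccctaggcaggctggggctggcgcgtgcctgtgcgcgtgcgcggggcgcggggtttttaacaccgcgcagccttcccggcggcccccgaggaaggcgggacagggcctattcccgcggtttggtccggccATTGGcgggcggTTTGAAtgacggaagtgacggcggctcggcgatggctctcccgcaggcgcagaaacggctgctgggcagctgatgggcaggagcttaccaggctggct
CEP135, chr4:55948695-55948994, plus strand: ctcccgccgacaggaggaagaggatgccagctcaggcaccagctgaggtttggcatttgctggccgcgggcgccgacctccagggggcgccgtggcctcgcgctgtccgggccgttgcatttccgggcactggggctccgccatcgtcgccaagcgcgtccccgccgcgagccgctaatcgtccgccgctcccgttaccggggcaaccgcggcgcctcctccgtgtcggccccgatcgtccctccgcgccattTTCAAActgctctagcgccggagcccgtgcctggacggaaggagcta
CEP192, chr18:12991112-12991411, plus strand: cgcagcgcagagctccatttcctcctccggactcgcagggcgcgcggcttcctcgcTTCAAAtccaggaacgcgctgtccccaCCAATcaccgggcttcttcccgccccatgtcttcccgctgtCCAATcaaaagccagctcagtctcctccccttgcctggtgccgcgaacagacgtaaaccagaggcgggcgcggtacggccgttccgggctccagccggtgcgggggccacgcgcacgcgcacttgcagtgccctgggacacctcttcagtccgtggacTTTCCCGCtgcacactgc
CEP68, chr2:65056166-65056465, plus strand: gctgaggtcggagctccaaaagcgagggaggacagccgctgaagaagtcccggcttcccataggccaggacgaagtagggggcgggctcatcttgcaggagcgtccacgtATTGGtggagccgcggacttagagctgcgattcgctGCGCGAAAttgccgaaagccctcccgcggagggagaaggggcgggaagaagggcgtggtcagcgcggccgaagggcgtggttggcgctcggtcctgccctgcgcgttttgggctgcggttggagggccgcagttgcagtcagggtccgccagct
CEP164, chr11:117327604-117327903, plus strand: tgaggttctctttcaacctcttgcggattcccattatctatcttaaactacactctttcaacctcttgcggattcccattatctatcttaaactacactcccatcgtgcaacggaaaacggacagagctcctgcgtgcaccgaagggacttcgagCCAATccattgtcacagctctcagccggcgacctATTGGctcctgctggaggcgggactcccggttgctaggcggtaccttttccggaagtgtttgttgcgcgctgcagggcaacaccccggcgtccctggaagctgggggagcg
CEP55, chr10:93496362-93496661, plus strand: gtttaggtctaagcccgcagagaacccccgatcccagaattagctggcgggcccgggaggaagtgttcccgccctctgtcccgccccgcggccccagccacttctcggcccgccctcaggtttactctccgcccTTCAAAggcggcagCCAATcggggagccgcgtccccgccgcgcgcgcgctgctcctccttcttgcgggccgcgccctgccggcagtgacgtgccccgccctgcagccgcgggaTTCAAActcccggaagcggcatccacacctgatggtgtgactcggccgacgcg
HAUS8 holds a CHR match that starts 14 bases before its start site, followed by an E2F match. CEP295 has a CCAAT match upstream of its CHR match, at -48. In CEP135 the CHR match begins at base 4 of the transcript. CEP68 and CEP164 hold no CHR match in these windows.

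CHR matches were found in 14 of 50 member promoters (28%), beside 11.8% of 9113 promoters of tested genes and 16.6% of all 27305 promoters in the table. They were in 10 of 20 promoters of members that fell (50%) and in 4 of 30 of the others (13.3%). E2F matches were in 7 of 50 (14%), beside 5.78% of tested genes, with 4 of 20 among the members that fell and 3 of 30 among the others. NRF1 core matches were in 3 of 50 (6%, beside 5.98%), with 0 of 20 among the members that fell and 3 of 30 among the others. CCAAT matches were in 22 of 50 (44%, beside 37.3%), with 8 of 20 (40%) among the members that fell and 14 of 30 (46.7%) among the others. These shares are descriptions, and no test was made of them. A protein-coding gene started on the opposite strand within 1000 bases upstream of 15 of 50 members (30%), beside 14.7% of 9006 tested protein-coding genes. In 2 such pairs both partners fell, and in the others with a tested neighbour only DDX5 was called among the neighbours. HAUS8 and the myosin gene MYO9B, whose starts lie 325 bases apart, had log2 fold changes of -1.08 and -0.68 (adjusted p = 0.00174 and 0.0045), and CEP57 and FAM76B, 232 bases apart, had -0.72 and -0.68 (adjusted p = 0.0359 and 0.0252). CEP95 was not called (-0.22, adjusted p = 0.559) while its neighbour DDX5, an RNA helicase gene, rose by 0.55 (adjusted p = 0.0117). CEP95 shares 506 of 8048 exonic bases with DDX5 on the opposite strand, and the handling of strand is not given in the sources used here.

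Of 7 gamma-tubulin ring complex genes, 4 fell (57.1%, beside 12.3% of all tested genes) and none rose (beside 11.8%). Without DMSO replicate 1 there were 5 lower (71.4%, beside 27.4%) and 0 higher (beside 27.8%). TUBG1, the main gamma-tubulin gene (ENSG00000131462, GRCh38 chromosome 17, 42609676 to 42615234, plus strand), had 232, 174 and 170.2 CPM in DMSO replicates 1, 2 and 3 and 127, 121 and 142 CPM in erianin replicates 1, 2 and 3. The groups did not overlap, and TUBG1 fell by 0.56 on the log2 scale (SE 0.15, adjusted p = 0.0323). With offsets for GC content and transcript length it was not called (-0.72, adjusted p = 0.0595), and without DMSO replicate 1 it was (-0.39, adjusted p = 2.56e-05). TUBG2, the second gamma-tubulin gene, had 0.558, 0.740 and 0.824 CPM with DMSO and 0.819, 0.607 and 0.886 CPM with erianin, with overlapping groups (adjusted p = 0.789). Of 100-base windows in the longest TUBG2 transcript, 13.5% also occur in that of TUBG1, with 26.1% of 50-base and 5.59% of 150-base windows. How many reads could not be assigned between them was not tested. Per length, TUBG1 was the most abundant of all 56 genes, at 159.7 and 156 TPM in DMSO replicates 2 and 3 and 125 ± 9.72 TPM with erianin (SD, n = 3), and TUBG2 was at 0.919 ± 0.164 TPM.

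TUBGCP3, which encodes a core subunit of the small gamma-tubulin complex, had the smallest p of the complex. Its levels were 160.4, 139 and 136 CPM with DMSO and 90.0, 91.3 and 92.2 CPM with erianin (-0.67 ± 0.10, adjusted p = 0.00593). TUBGCP2, its partner in that small complex, had 111, 106 and 105 CPM with DMSO and 89.9, 88.5 and 92.3 CPM with erianin. All erianin libraries were below all DMSO libraries, yet TUBGCP2 was not called (-0.25 ± 0.09, adjusted p = 0.0893). It was called lower without DMSO replicate 1 (adjusted p = 0.00695). TUBGCP4 and TUBGCP6, which encode subunits found in the full ring, fell by 0.42 and 0.72 (adjusted p = 0.022 and 0.0494). TUBGCP4 shares 3732 of 11171 exonic bases with TP53BP1 on the opposite strand. For TUBGCP6, DMSO replicate 1 (113 CPM) was within the erianin range of 93.7 to 113 CPM, while DMSO replicates 2 and 3 had 194 and 197 CPM, and its fall was 0.93 without replicate 1. TUBGCP5, another full-ring subunit gene, was not called (-0.20, adjusted p = 0.266). Per length, the order among GCP genes with erianin was TUBGCP3 (37.5 ± 0.717 TPM), TUBGCP6 (20.9 ± 1.94 TPM), TUBGCP2 (17.9 ± 0.259 TPM), TUBGCP5 (8.49 ± 1.01 TPM) and TUBGCP4 (7.73 ± 0.286 TPM). TUBGCP5 and TUBGCP4 differed by less than their spread.

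Of 8 augmin genes, 4 fell (50%, beside 12.3% of all tested genes) and none rose (beside 11.8%). Without DMSO replicate 1 there were 4 lower (50%, beside 27.4%) and 1 higher (12.5%, beside 27.8%). HAUS8, which encodes the augmin subunit that binds the microtubule (ENSG00000131351, GRCh38 chromosome 19, 17049729 to 17075625, minus strand; promoter above), had 110.0, 100.4 and 92.1 CPM with DMSO and 45.4, 49.1 and 48.6 CPM with erianin. Every erianin library was below every DMSO library, a 2.11-fold decrease (-1.08 ± 0.11, adjusted p = 0.00174), and without DMSO replicate 1 the value was -0.9997 ± 0.07. It had the smallest p of the augmin genes. HAUS4, HAUS2 and HAUS5, which encode other augmin subunits, fell by 0.70, 0.58 and 0.57 (adjusted p = 0.0152, 0.0233 and 0.0133). HAUS4 shares 785 of 2539 exonic bases with AL132780.3 on the same strand. HAUS1, HAUS3, HAUS6 and HAUS7, also augmin subunit genes, were not called, with log2 fold changes of -0.17, 0.13, -0.07 and 0.20. HAUS3 was called higher without DMSO replicate 1 (0.23 ± 0.10, adjusted p = 0.0498). HAUS7 had 2.21 ± 0.876 CPM with DMSO (SD, n = 3) and shares 1414 of 3968 exonic bases with TREX2 on the same strand.

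Of 4 genes of the pericentriolar scaffold and its recruitment, 3 fell (75%) and none rose, with and without DMSO replicate 1. Of all tested genes, 12.3% fell and 11.8% rose, and without that library 27.4% fell and 27.8% rose. CEP192, a scaffold protein that recruits the kinases Aurora A and PLK4, had 86.3, 68.9 and 69.1 CPM with DMSO and 44.3, 45.3 and 41.7 CPM with erianin (1.71-fold lower, -0.77 ± 0.12, adjusted p = 0.00645). PCNT, which encodes pericentrin, had 210.1, 199 and 186 CPM with DMSO and 125, 124 and 136 CPM with erianin (-0.63 ± 0.10, adjusted p = 0.00639). CDK5RAP2, which encodes an activator of the gamma-tubulin ring complex, had 143, 114 and 112 CPM with DMSO and 87.7, 85.8 and 83.9 CPM with erianin (-0.52 ± 0.12, adjusted p = 0.0236). In all 3 genes the lowest DMSO library was above the highest erianin library, and without DMSO replicate 1 the falls were 0.64, 0.57 and 0.38. NEDD1, which encodes the adaptor that brings gamma-tubulin rings to the centrosome and to augmin, had 61.7, 34.1 and 34.8 CPM with DMSO and 35.9, 35.6 and 31.4 CPM with erianin. Only DMSO replicate 1 stood above the rest, and NEDD1 was not called (-0.34, adjusted p = 0.33), with 0.01 ± 0.08 without that library (adjusted p = 0.944). With offsets for GC content and length and without DMSO replicate 1, NEDD1 was called lower (-0.20, adjusted p = 0.00337).

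**Figure D3:**
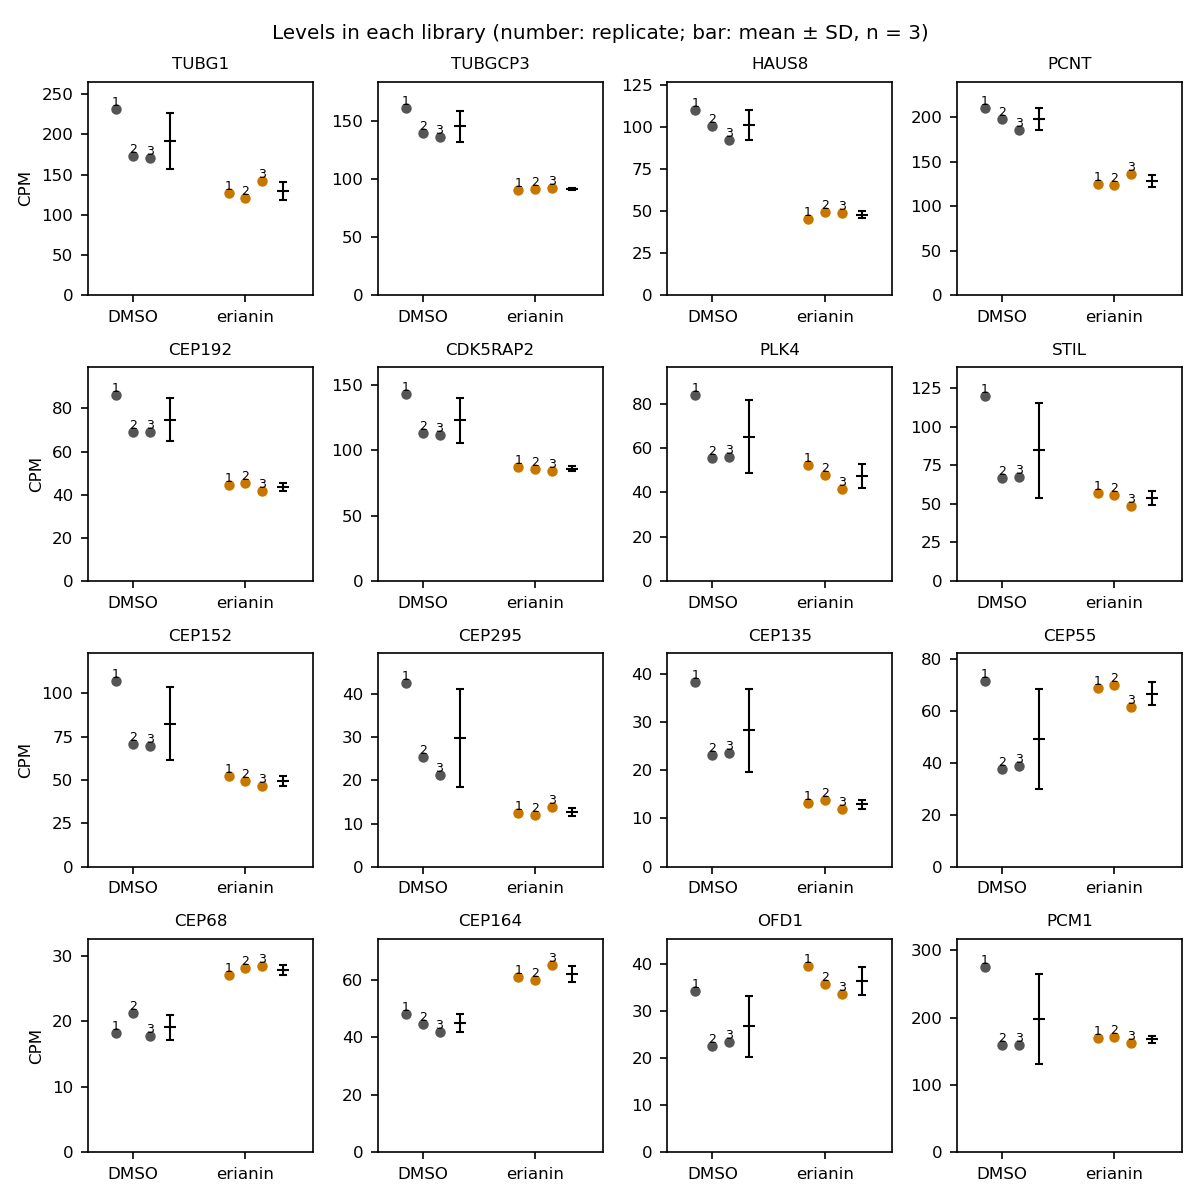
Levels in CPM (vertical axes, from 0) of 16 members in each DMSO and erianin library. Numbers are replicates and bars are mean ± SD (n = 3). HAUS8, CEP192, PCNT, TUBGCP3, STIL and PLK4 are among the genes with every erianin library below every DMSO library. DMSO replicate 1 is the highest DMSO library in each of them, and stands further above the others in STIL, PLK4, CEP55 and PCM1 than in HAUS8, CEP192, PCNT and TUBGCP3.

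Among 17 genes of centriole duplication and growth, 6 fell (35.3%, beside 12.3% of all tested genes) and none rose (beside 11.8%). Without DMSO replicate 1 there were 12 lower (70.6%, beside 27.4%) and 0 higher (beside 27.8%). CEP295, needed for new centrioles to become centrosomes, had the largest fall of all members. It had 42.7, 25.4 and 21.3 CPM with DMSO and 12.5, 11.9 and 13.7 CPM with erianin (2.34-fold lower, -1.23 ± 0.26, adjusted p = 0.0151). CEP135, a centriole wall and cartwheel protein, had 38.2, 23.1 and 23.5 CPM with DMSO and 13.2, 13.7 and 11.9 CPM with erianin (2.18-fold lower, -1.13 ± 0.21, adjusted p = 0.0107). The groups did not overlap in either gene, and the falls were 0.86 and 0.83 without DMSO replicate 1. CEP295 shares 250 of 9495 exonic bases with TAF1D and 1071 with AP001273.1, both on the opposite strand. Their promoter windows, shown above, each hold a CHR match.

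CEP152, which recruits PLK4 to the parent centriole, had 107, 70.7 and 69.9 CPM with DMSO and 52.5, 49.5 and 46.3 CPM with erianin (-0.74 ± 0.18, adjusted p = 0.0256). TUBE1, the epsilon-tubulin gene linked to centriole triplet microtubules, had 61.0, 35.7 and 34.6 CPM with DMSO and 25.1, 25.1 and 24.4 CPM with erianin (-0.82 ± 0.22, adjusted p = 0.0358). Without DMSO replicate 1 both fell by 0.49. CEP57, which helps to place CEP63 and CEP152, and CEP78, a centriole wall protein, fell by 0.72 and 0.57 (adjusted p = 0.0359 and 0.0146), and by 0.44 and 0.47 without DMSO replicate 1. The delta-tubulin gene TUBD1, whose product acts with epsilon-tubulin, was not called (3.43 ± 0.648 CPM with DMSO, 4.55 ± 1.14 CPM with erianin, adjusted p = 0.261).

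The core duplication module of PLK4, STIL and SASS6 was not called with all 6 libraries. PLK4, the kinase that starts centriole duplication, had 84.1, 55.4 and 55.9 CPM with DMSO and 52.6, 47.8 and 41.8 CPM with erianin (-0.46 ± 0.19, adjusted p = 0.117). STIL, which binds PLK4, had 120.3, 66.6 and 67.2 CPM with DMSO and 57.1, 55.8 and 48.5 CPM with erianin (-0.65 ± 0.24, adjusted p = 0.0851). SASS6, the cartwheel protein, had 36.01, 18.6 and 16.2 CPM with DMSO and 12.5, 13.8 and 11.9 CPM with erianin (-0.89 ± 0.29, adjusted p = 0.0656). No library overlapped between the groups for these 3 genes, and DMSO replicate 1 was far above the other DMSO libraries. Without it the same genes fell by less but were called: PLK4 by 0.22 (adjusted p = 0.0296), STIL by 0.30 (adjusted p = 0.00175) and SASS6 by 0.44 (adjusted p = 0.00104). With offsets for GC content and length and all 6 libraries they were also called, at -0.50, -0.64 and -0.91 (adjusted p = 0.00837, 0.0158 and 0.0149). CENPJ, which encodes the centriole elongation factor CPAP, had 78.8, 48.1 and 46.4 CPM with DMSO and 48.1, 51.5 and 45.4 CPM with erianin. Its groups overlapped, and its value was -0.26 with all libraries (adjusted p = 0.416) and 0.05 without DMSO replicate 1 (adjusted p = 0.638). CEP63, CEP120 and CEP44, which act in centriole assembly and maturation, were not called with all libraries and were called lower without DMSO replicate 1 (-0.22, -0.23 and -0.28), and CEP97, CEP76 and CEP85, which encode regulators of centriole length and number, were called in neither fit.

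The 7 appendage and linker genes held both members that rose (28.6%, beside 11.8% of all tested genes), and 2 others of them fell (28.6%, beside 12.3%). Without DMSO replicate 1 there were 2 lower (28.6%, beside 27.4%) and 3 higher (42.9%, beside 27.8%). CEP68, a linker protein between parent centrioles, had 18.2, 21.2 and 17.7 CPM with DMSO and 27.0, 28.1 and 28.4 CPM with erianin (1.46-fold higher, 0.54 ± 0.12, adjusted p = 0.0158). CEP164, a distal appendage protein needed to form a cilium, had 48.0, 44.7 and 41.8 CPM with DMSO and 60.8, 60.0 and 65.1 CPM with erianin (1.38-fold higher, 0.47 ± 0.10, adjusted p = 0.0182). All erianin libraries were above all DMSO libraries for both genes, and without DMSO replicate 1 the values were 0.53 for each. CEP68 shares 757 of 8623 exonic bases with RAB1A on the opposite strand. CEP89, another distal appendage gene, and CEP19, whose product acts in cilium formation, fell by 0.41 and 0.72 (adjusted p = 0.0296 and 0.0263). CEP250, which encodes the linker anchor C-Nap1, and CEP350, which binds CEP19, were not called (-0.27 and -0.32, adjusted p = 0.203 and 0.217). CEP170, a subdistal appendage gene, was not called either (0.09), and without DMSO replicate 1 it was called higher (0.36 ± 0.08, adjusted p = 0.000464).

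Of 9 satellite and cilium genes, 3 fell (33.3%, beside 12.3% of all tested genes) and none rose (beside 11.8%). Without DMSO replicate 1 there were 6 lower (66.7%, beside 27.4%) and 2 higher (22.2%, beside 27.8%). CEP72, a satellite protein, showed the tightest DMSO group of the genes described, with 35.4, 34.9 and 35.8 CPM, against 23.1, 21.6 and 25.2 CPM with erianin (-0.60 ± 0.11, adjusted p = 0.00856). Its fall was 0.59 without DMSO replicate 1. CEP290, a gate protein at the base of the cilium, had 23.3, 12.0 and 12.4 CPM with DMSO and 7.81, 8.70 and 9.12 CPM with erianin (-0.90 ± 0.27, adjusted p = 0.0472), and fell by 0.50 without DMSO replicate 1. CEP41, a cilium protein, fell by 0.51 (adjusted p = 0.0252). PCM1, the satellite scaffold, had 276, 159 and 159.7 CPM with DMSO and 169.5, 172 and 162 CPM with erianin. Its erianin libraries lay below DMSO replicate 1 and above DMSO replicates 2 and 3, and PCM1 was not called (-0.24, adjusted p = 0.462; 0.09 without DMSO replicate 1). OFD1, a satellite and distal centriole protein, went the other way, with 34.3, 22.6 and 23.6 CPM with DMSO and 39.6, 35.9 and 33.7 CPM with erianin. It was not called with all libraries (0.44 ± 0.18, adjusted p = 0.114) and was called higher without DMSO replicate 1 (0.67 ± 0.09, adjusted p = 5.03e-07). CEP126, CEP131 and CEP162, which encode centrosome and cilium proteins, were called lower without that library (-0.44, -0.50 and -0.30).

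Of 4 members left without a role group, none was called with all libraries, beside 12.3% of all tested genes lower and 11.8% higher. Without DMSO replicate 1 there were 0 lower (beside 27.4%) and 2 higher (50%, beside 27.8%). CEP70 had 13.3, 6.53 and 7.27 CPM with DMSO and 14.8, 13.5 and 11.9 CPM with erianin (0.57 ± 0.27, adjusted p = 0.17). CEP55, which acts at the midbody in the last step of cell division, had 71.6, 37.5 and 38.7 CPM with DMSO and 68.8, 70.0 and 61.7 CPM with erianin (0.44 ± 0.25, adjusted p = 0.239). In both genes DMSO replicate 1 was as high as the erianin libraries, and DMSO replicates 2 and 3 were lower than every other library. Without DMSO replicate 1 these genes had the largest rises of all members, 0.97 ± 0.12 for CEP70 (adjusted p = 3.6e-07) and 0.82 ± 0.08 for CEP55 (adjusted p = 2.9e-09). Per length, CEP55 stood second among members with erianin, at 85.7 ± 6.45 TPM, behind TUBG1. CEP112 was the least abundant member, at 0.131 ± 0.0455 TPM with erianin, and was not called (adjusted p = 0.76), as was CEP95.

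**Figure D4:**
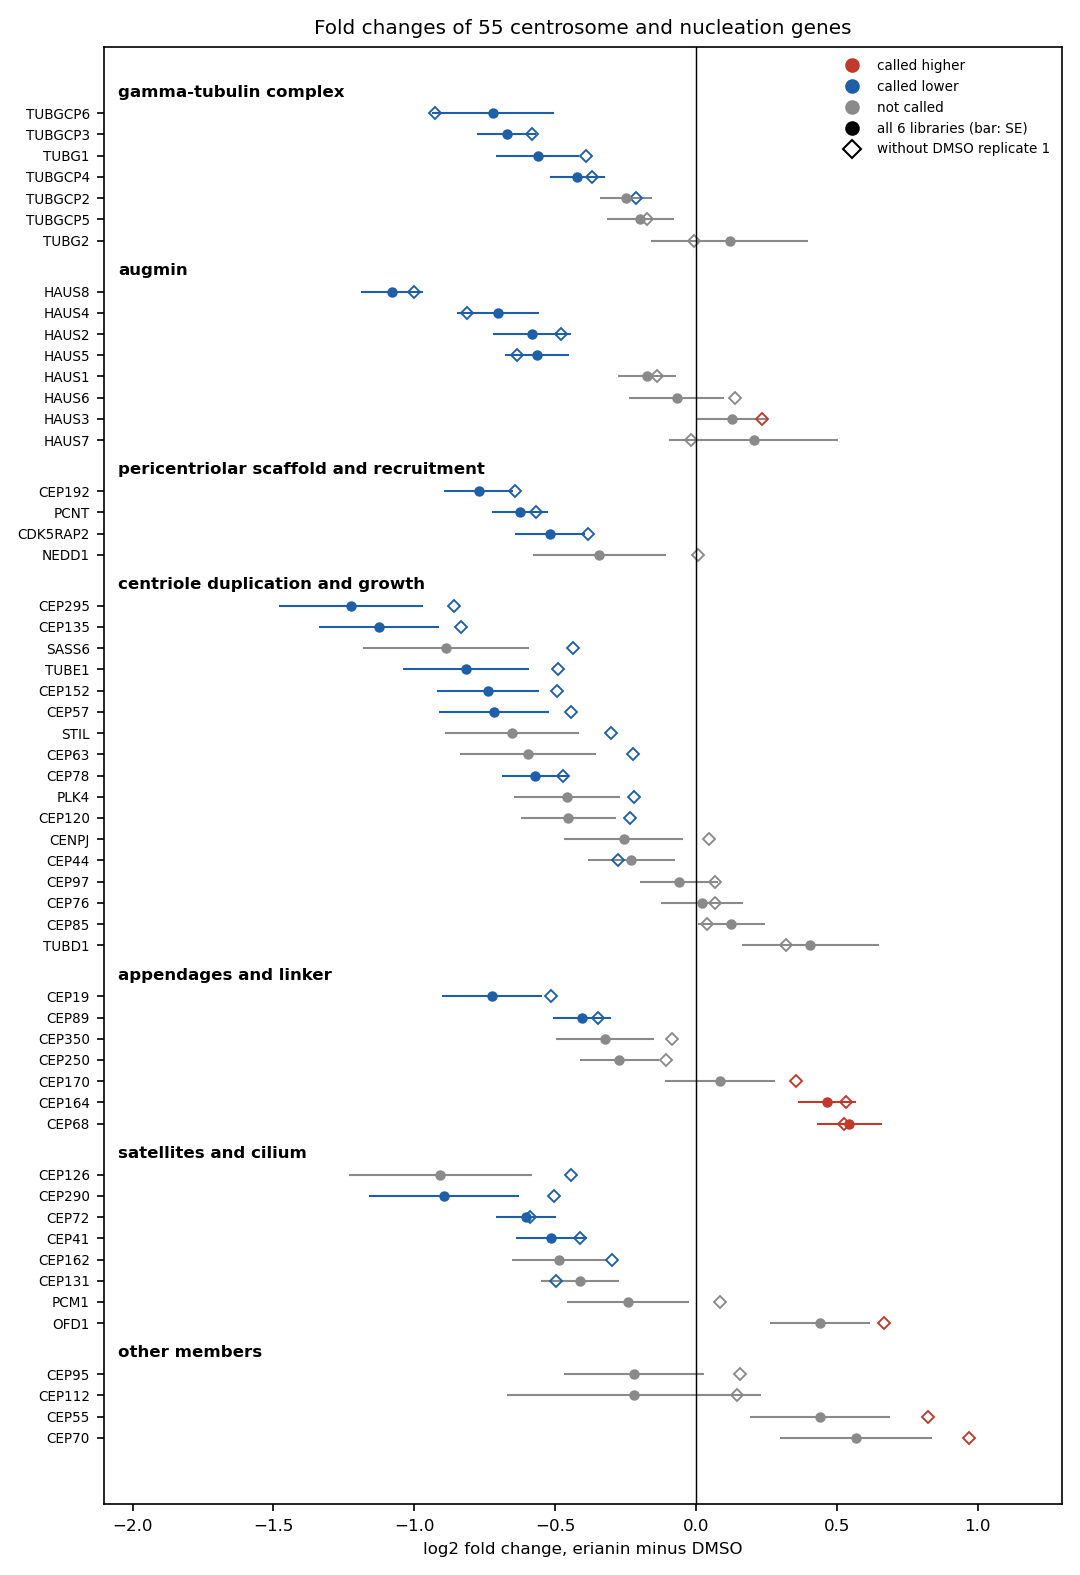
Log2 fold change, erianin minus DMSO (horizontal axis), of 55 members by role (rows). Filled circles with SE bars use all 6 libraries and open diamonds leave out DMSO replicate 1; colours mark calls. For SASS6, STIL and CEP63 the diamonds lie nearer to 0 than the circles, and for CEP55, CEP70 and OFD1 they lie further to the right.

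Genes outside the rule that work with these proteins were read from 2 lists, beside 12.3% of all tested genes called lower and 11.8% called higher, or 27.4% and 27.8% without DMSO replicate 1. Of 20 nucleation partners, 1 rose, 5 fell and 14 were not called, with a median log2 fold change of -0.19, and without DMSO replicate 1 there were 5 higher and 8 lower. NINL, which encodes a ninein-like protein that binds gamma-tubulin, fell from 5.26 ± 0.487 to 2.13 ± 0.170 CPM (SD, n = 3; -1.30 ± 0.16, adjusted p = 0.0031). AURKA, which encodes the mitotic kinase Aurora A, rose from 214 ± 16.2 to 313 ± 14.1 CPM (0.55 ± 0.10, adjusted p = 0.0103). NUMA1, a spindle pole protein, fell from 232 ± 10.3 to 168 ± 6.21 CPM (-0.47 ± 0.09, adjusted p = 0.0133). TACC3, KIF2C and AKAP9, which encode spindle and centrosome proteins, were the other genes that fell (-0.40, -0.37 and -0.78). AKAP9 had 159.4 CPM in DMSO replicate 1, against 94.1 and 84.8 CPM in DMSO replicates 2 and 3, and fell by 0.44 without that library. Of 23 centriole and centrosome partners, 0 rose, 4 fell and 19 were not called, with a median of -0.37, and without DMSO replicate 1 there were 4 higher and 10 lower. KIF24, a kinesin that restrains cilium formation, fell from 63.4 ± 8.53 to 31.9 ± 0.683 CPM (-0.99 ± 0.12, adjusted p = 0.00315). RTTN, which acts in centriole growth, fell from 46.0 ± 6.03 to 25.6 ± 1.43 CPM (-0.85 ± 0.13, adjusted p = 0.00535). POC1A, a centriole protein, and WDR62, a spindle pole protein, fell by 0.72 and 0.37 (adjusted p = 0.0162 and 0.0362).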

How the data were processed

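Gene expression was measured by RNA sequencing in 3 DMSO and 3 erianin libraries, grouped by their labels. For each gene the authors deposited a raw read count and, in a further table, a TPM value scaled to gene length. Tools in the submitters' processing notes are StringTie 2.2.1, featureCounts 2.0.1, STAR 2.7.10 and fastp 0.23.2, with GRCh38 (hg38) as the build, and with no role or order. The annotation used and how strand and read pairs were handled were not given in the sources used here. TPM columns summed to 391831.2 in DMSO replicate 1 and to 635745.7 to 667495.9 in the other libraries, so TPM levels with DMSO are given for replicates 2 and 3.

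Of 65807 entries, 61 repeated symbols were left out. Counts were tested over all genes with edgeR 4.0.16 (R 4.3.3; quasi-likelihood F test, TMM scaling, filterByExpr, 11550 genes), with treatment as the single term and Benjamini-Hochberg adjustment, called at 0.05. Log2 fold changes are erianin minus DMSO. Each SE was derived from F, as the absolute log2 change divided by the root of F. CPM uses TMM-scaled library sizes. The fit was checked on simulated counts of 11550 genes, 200 of them changed. It called 52% of those changed 2-fold and 3% of those changed 1.5-fold, and 5.17% of its calls were false. A gene that was not called can therefore have changed. The simulated libraries were drawn from shared means, with no library set apart as DMSO replicate 1 was. In the data 11.8% of tested genes were called higher and 12.3% lower, so the simulated rates may not hold for them. Gene positions, exon overlaps, transcript length and GC content came from GENCODE release 29 (GRCh38), by Ensembl identifier, with none for TUBGCP5. Promoters came from RefSeq (GRCh38.p14).

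The members, role groups, partner lists and tests were chosen with earlier results of these data known. Values in every library were given for the 6 called members with the largest fall and up to 6 with the largest rise, 15 members fixed by name, and the member with the smallest p in each role group. Other called members are named with their fold change. Of the partner lists, the 3 genes with the smallest p are described, and the rest of the called genes were named after their values were seen, as were members not called with all libraries, their neighbours and the promoters shown. Alternatives were DESeq2 1.42.0 and its size factors, total counts alone, 2 other filters on low counts, offsets from smooth fits to GC content and length (mgcv 1.9.3; 11362 genes), a block on replicate number, limma 3.58.1 on log2(TPM + 1) or, in another fit, log2(TPM + 0.1) values, and each library left out in turn. Values after ± are SEs for log2 fold changes and SDs across libraries for CPM and TPM levels. Figures used matplotlib 3.10.9. Values of 1 member are not reported here by name, and it stays in the counts.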

Additional observations from a re-analysis of the deposited data

How the results depend on the processing

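The number of members that fell was 22 with all libraries and the number that rose 2. Shares of all tested genes called are given only for that fit and for the fit without DMSO replicate 1. For the other fits, the counts below do not tell members from tested genes in general. DESeq2 gave 28 lower and 2 higher, DESeq2 size factors 21 and 2, no filter 23 and 2, the 1 CPM filter 20 and 2, and GC content and length offsets 30 and 3. With total counts alone 10 fell. On the log2(TPM + 1) and log2(TPM + 0.1) scales 4 fell and 4 rose in each, with median shifts of all genes of 0.20 and 0.28 and member medians of -0.13 and -0.14. Leaving out 1 library at a time gave 2 to 32 lower and 0 to 8 higher, and offsets without DMSO replicate 1 gave 35 lower and 7 higher. The cause was not tested. With the replicate block, 19 fell and 2 rose, and block and offsets together gave 29 and 4. Deviations of same-numbered libraries from their group means correlated at 0.17, -0.14 and 0.23 for replicates 1, 2 and 3. DMSO replicate 1 weighs on the DMSO mean and so on all 3 values, which therefore cannot show whether libraries were paired. The main fit did not take the numbers to pair the samples. None of the 24 called members changed direction in any alternative. Alternatives other than offsets and leaving out DMSO replicate 1 were read for 10 uncalled members. Those that changed sign were TUBG2 (-0.0025 with block and offsets), CENPJ, PCM1 and TUBGCP2 on the log2(TPM + 1) scale (0.0556, 0.0785 and 0.0222) and on the log2(TPM + 0.1) scale (0.0587, 0.0825 and 0.0245). Over fits without 1 library, values ran from -0.0071 to 0.2767 for TUBG2, -0.4952 to 0.0079 for NEDD1, -0.3965 to 0.0466 for CENPJ and -0.3803 to 0.086 for PCM1, with the changed sign in each without DMSO replicate 1. In that fit 9 of 56 members changed sign, the others being HAUS6 (0.14), CEP97 (0.07), CEP95 (0.16), CEP112 (0.15) and HAUS7 (-0.02), and CEP76 did with offsets (-0.04). TUBG2 and CEP112, with 0.771 ± 0.146 and 0.562 ± 0.197 CPM with erianin (SD, n = 3), are the members that depth limits most.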
